A study of Mus musculus with 24 samples.

Results

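Nuclei that the authors placed in the meninges and Schwann class were compared between mice given formalin in both hindpaws and control mice. The class held 1839 of the 13425 nuclei with a class in the series, out of 18000 barcodes. The comparison used 744 nuclei from 9 control samples and 681 nuclei from 10 formalin samples, with 41 to 113 nuclei per sample. All mice were ICR/CD-1, an outbred stock, of both sexes and 8 to 11 weeks old. Formalin mice received 30 µl of 2% paraformaldehyde in the plantar surface of each hindpaw, a standard painful stimulus, after habituation. The treatment text names no vehicle injection for controls. A further 5 samples from mice challenged on a rotarod entered the edgeR fit, through its expression filter, normalization and estimate of spread, and the clustering. With them 3273 genes were tested in the whole class, and 2502 without them. They were not compared with the other groups. The labels give the tissue as brain, whereas the protocol describes lumbar spinal cord from which the dorsal root ganglia had been removed. The sources used here do not state the time from injection to dissection.

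The meninges are the fibroblast layers that wrap the cord and secrete its collagen-rich covering, retinoic acid and barrier transporters. Schwann cells ensheathe and myelinate axons of the nerve roots that leave the cord, which lie outside the central glia. Both cell types, like most cells, answer growth factors, stretch and cytokines by transcribing immediate early genes, whose mRNAs appear and vanish quickly. Among them are Fos, Jun and Junb (subunits of the AP-1 factor), the Egr and Nr4a transcription factors, and secreted matricellular proteins such as Cyr61.

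The class was a mixture. Clustering of its 1839 nuclei, those of rotarod samples included, without activity genes, sex-linked genes and mitochondrial genes gave 9 clusters. Of these, 5 clusters with 929 nuclei were meningeal-like, led by genes such as Slc6a20a, Ranbp3l, Aldh1a2 and Slc47a1. Another 3 clusters with 656 nuclei were Schwann-like, led by Pmp22 of peripheral myelin or by Scn7a and Cdh19. The remaining cluster, 254 nuclei led by Dnah12, Cfap43 and Spag16 of motile cilia, was ependymal-like and is not named in the class label. Pooled Schwann cell markers stood at 20118 CPM (UMIs per 1e6 UMIs) in Schwann-like nuclei and 788 CPM in meningeal-like nuclei. Microglia or macrophage markers were low throughout, at 250 CPM on average in formalin samples and 248 CPM in controls, with C1qa, C1qb, Cd163 and Cd74 at 0.

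Formalin nuclei were shallower. The median UMI count of a sample's nuclei in the class ran from 642 to 1404.5 in formalin samples (median 941) and from 586 to 2604 in controls (median 1512). Summed UMIs of the class were 36534 to 184394 per formalin sample and 49990 to 327737 per control sample. Control replicate 9 stood apart in its makeup, with 81.1% of its class nuclei meningeal-like against 42.5% to 61.9% in the other controls. Of all barcodes 19 occurred in more than 1 library, 1 of them in the class. The class made up 13.5% ± 3.09 (SD, n = 10) of the classed nuclei in formalin samples and 13.4% ± 2.74 (n = 9) in controls (two-sided exact permutation test, p = 0.930). Ependymal markers averaged 2519 CPM in formalin samples and 3405 CPM in controls.

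Meningeal-like nuclei of formalin samples held more rapid activity transcripts than those of controls. The list of 29 rapid activity genes summed to 559 ± 126 CPM (SD, n = 10) in formalin samples and 264 ± 78.8 CPM (n = 9) in controls, a ratio of 2.11. Formalin samples lay between 400 and 718 CPM (median 587) and controls between 104 and 362 CPM (median 272). Every formalin sample was above every control. No single gene separated the groups in this way in these nuclei, 0 of the 10408 with at least 10 UMIs (0%). The sum has no p-value, because the list was chosen with earlier results of these data known. Of the 1149 single genes at 150 to 600 CPM in controls, 0 reached a ratio of 2 (0%).

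In Schwann-like nuclei the same list did not differ in this way. It summed to 364 ± 116 CPM in 10 formalin samples (173 to 528) and 355 ± 159 CPM in 8 controls (173 to 566), a ratio of 1.02, and the groups overlapped over nearly their whole range. Of its 4 genes with at least 10 UMIs in these nuclei 3 had a higher mean after formalin (53.1% of all such genes did). Nr4a2 alone supplied 56 of its 123 formalin UMIs and 42 of its 117 control UMIs there. The AP-1 list, on 15 and 9 UMIs, stood at 41.9 ± 37.7 and 22.1 ± 16.7 CPM in Schwann-like nuclei. That was a ratio of 1.89, with 5 of 10 formalin samples above every control. In meningeal-like nuclei the AP-1 ratio was 1.60, with 7 of 10 above. The Egr/Nr4a list had ratios of 0.992 in Schwann-like and 2.26 in meningeal-like nuclei. Control replicate 9 had 9 Schwann-like nuclei, under the minimum of 10. It was left out of the Schwann-like CPM values, UMI counts and tests, but not of shares of nuclei. Ependymal-like nuclei held 245 ± 176 CPM in formalin samples and 307 ± 386 CPM in controls. In the whole class, which averages these, formalin samples held 452 ± 53.4 CPM (394 to 549) and controls 294 ± 109 CPM (125 to 509), a ratio of 1.54. All 10 formalin samples were above the control median, but control replicate 3 exceeded all but 2 of them. Of the 1172 single genes at 150 to 600 CPM in controls, 5 reached a ratio of 1.5 in the class (0.427%). Of the list's 18 genes with at least 10 UMIs in the class, 15 had a higher mean after formalin (54.2% of all such genes did). Of these 18, 3 had an unadjusted exact permutation p under 0.05 in that direction (2.76% of all genes). Because of how the list was chosen, these shares are description only. Neurons of the same samples held 96.3 ± 22.6 and 64.6 ± 15.1 CPM, a ratio of 1.49, with 5 of 10 formalin samples above every control. Astrocytes held 115 ± 55.6 CPM in 10 formalin samples and 70.7 ± 44.9 CPM in 8 controls, a ratio of 1.62, with 3 of 10 above every control. Oligodendrocytes had a ratio of 0.992 and endothelial or vascular nuclei one of 0.951.

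**Figure D1:**
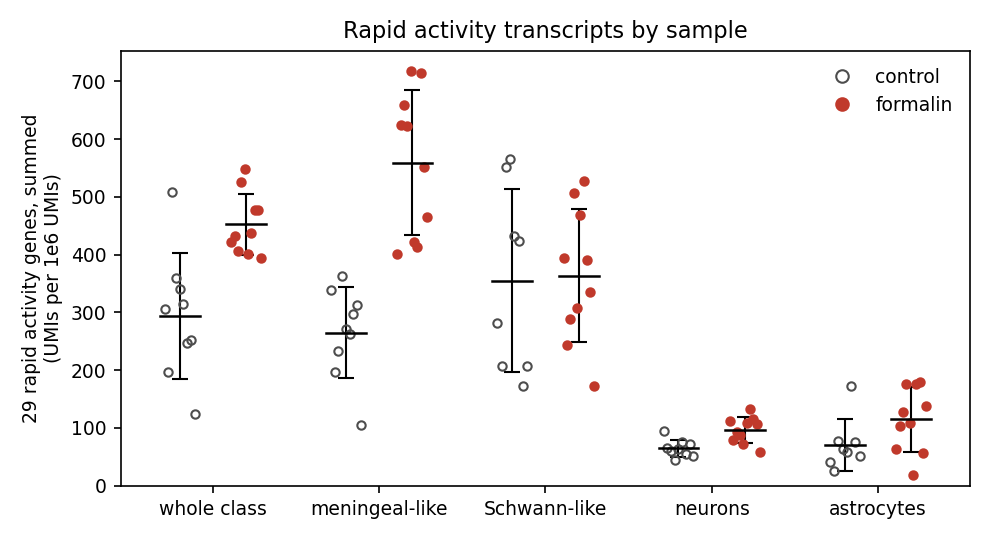
Summed level of 29 rapid activity genes in UMIs per 1e6 UMIs, 1 point per sample, for control (open) and formalin (filled) samples in 5 kinds of nuclei; lines and bars are the mean and SD. Meningeal-like nuclei of formalin samples lie at 400 to 718 and those of controls at 104 to 362, while Schwann-like nuclei overlap.

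The size of the difference varied with the nuclei and genes counted. With each nucleus thinned to 500 UMIs, which also gives every nucleus the same weight, the ratio in meningeal-like nuclei was 1.71, from 498 ± 131 CPM against 291 ± 111 CPM, and 6 of 10 formalin samples were above every control. This left out 12 formalin and 23 control nuclei with fewer UMIs. Without Egr1, Nr4a2 and Cyr61 the ratio was 1.57, and 3 formalin samples were above every control. Leaving out any 1 sample gave ratios from 1.97 to 2.22. Without the 3 controls whose titles end in cx it was 2.01, and all 10 formalin samples were above every remaining control. With formalin samples i and i+5 merged it was 2.10, and all 5 units were above every control. Neither step could make the groups overlap, because every formalin sample was already above every control. Choosing nuclei by marker UMIs rather than clusters gave 2.17, with 9 of 10 above. This was nearly the same set, as 916 of the 919 nuclei so chosen, rotarod samples included, were in the meningeal-like clusters.

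Within the list, the genes with the largest differences in meningeal-like nuclei encode transcription factors and a secreted matrix protein. Of the 29 genes 26 had a UMI there, 21 with a higher mean in formalin samples and 5 with a lower one. Of the 13 with at least 10 UMIs, 11 had a higher mean after formalin, as did 54.4% of all genes with that many UMIs. Of these 13, 4 had an unadjusted exact permutation p under 0.05, all higher in formalin (30.8%, against 2.56% of all 10408 genes), and 0 passed adjustment over all genes. As the list was chosen with earlier results of these data known, these shares describe it and do not test it. The median log2 ratio with 10 CPM added was 0.82 over these 13 genes and 0.04 over all 10408.

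Egr1, a zinc finger transcription factor, was present in 8 of 10 formalin samples and 3 of 9 controls. Formalin samples ran from 0 to 112 CPM (median 48.7) and controls from 0 to 33.4 CPM (median 0). The means were 56.1 ± 41.3 and 7.32 ± 12.5 CPM, from 26 and 6 UMIs (exact permutation p = 0.0036, adjusted p = 0.878). Egr1 transcripts were found in 20 of 342 formalin nuclei, 5.85% with an exact 95% interval of 3.61% to 8.89%, and in 4 of 403 control nuclei, 0.993% (0.271% to 2.52%). These intervals pool nuclei over samples and cover counting error only, so the comparison of conditions rests on the test over samples. Median depth was 1026 UMIs in the former and 1633 UMIs in the latter, so the shallower group had the larger share. Oligodendrocytes, taken as a type with little of this gene, had a UMI of it in 0 of 1014 formalin nuclei. This allows a share of nuclei with a UMI of up to 0.296%. Their share was 0.478% of 837 control nuclei, and median depths were 958.5 and 1264 UMIs. Egr1 was found in 2.47% of formalin and 1.76% of control neurons, and in 7 of 556 and 0 of 483 astrocyte nuclei. Endothelial or vascular nuclei went the other way, at 4 of 224 and 8 of 287.

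Nr4a2 encodes an orphan nuclear receptor. Meningeal-like nuclei of controls held 1 UMI of it in all and those of formalin samples 22 UMIs, spread over 7 samples. Levels ran from 0 to 317 CPM in formalin samples (median 32.5) and from 0 to 5.73 CPM in controls (median 0). The pooled ratio was 36.6, with a counting interval of 5.92 to 1511 (exact permutation over samples p = 0.0067, adjusted p = 0.978). Formalin replicate 2 held 12 of these UMIs, and without it the ratio of the group means was 39.8 in place of 85.5, each resting on the 1 control UMI. In Schwann-like nuclei Nr4a2 was common in both groups, at 154 ± 76.4 and 153 ± 127 CPM. It was found in 17.3% of 255 formalin and 15.1% of 232 control nuclei, those of control replicate 9 included. The difference of its formalin effect between the 2 kinds of nuclei did not pass the test (exact permutation p = 0.433, adjusted p = 1).

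Cyr61, a secreted integrin ligand induced by growth factors and stretch, averaged 67.0 ± 72.8 CPM in formalin samples (0 to 213, median 54.0) and 13.5 ± 15.8 CPM in controls (0 to 39.5, median 5.73). It rested on 35 and 9 UMIs (exact permutation p = 0.0325, adjusted p = 0.978), and 14 of the 35 were in formalin replicate 10. Leaving out each sample in turn gave an exact permutation p of up to 0.0598. Formalin samples included 3 at 0, so the groups overlapped at the low end.

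Fos, the AP-1 subunit most used to mark stimulated cells, was found in 8 of 342 meningeal-like formalin nuclei from 5 samples and in 0 of 403 control nuclei, which allows a share of nuclei with a UMI of up to 0.744% and sets no limit on nuclei that express the gene. Oligodendrocytes had a Fos UMI in 1 of 1014 formalin and 1 of 837 control nuclei. Neurons had one in 30 of 2392 formalin and 14 of 3118 control nuclei, and astrocytes in 2 of 556 and 0 of 483. Endothelial or vascular nuclei went the other way, at 0 of 224 and 3 of 287. The 11 Fos UMIs in meningeal-like nuclei gave 25.5 CPM pooled, 6.10 times the floor of 3 UMIs over the control group. That figure leaves out counting error in the 11 UMIs, so it is not a lower bound. Over samples the exact permutation p was 0.0325 (adjusted p = 0.978). Leaving out a sample gave p up to 0.0824 in the same exact permutation test. Junb, its dimer partner, was found in 10 formalin and 4 control nuclei. At least 2 of Fos, Junb and Egr1 occurred together in 6 formalin nuclei and in 0 control nuclei of the meningeal-like clusters. Schwann-like nuclei had 1 Fos UMI in formalin samples and 0 in controls.

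**Figure D2:**
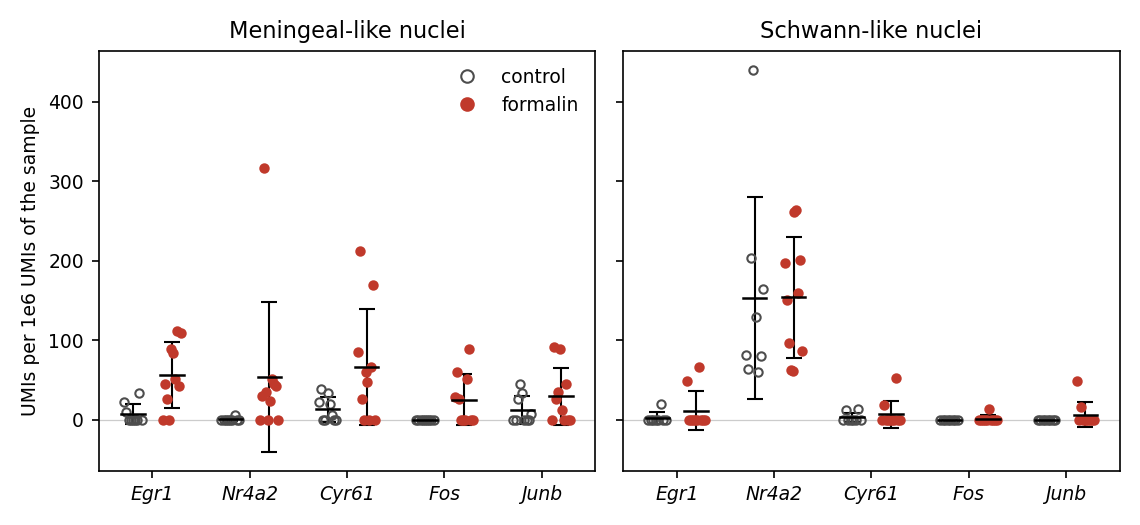
Level of 5 rapid activity genes in UMIs per 1e6 UMIs, 1 point per sample, in meningeal-like (left) and Schwann-like (right) nuclei of control (open) and formalin (filled) samples; lines and bars are the mean and SD. Nr4a2 is near 0 in control meningeal-like nuclei and averages 153 in control Schwann-like nuclei.

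Other immediate early genes, like those above, overlapped between the groups. Jun was at 22.6 ± 34.4 CPM in formalin meningeal-like nuclei and 31.3 ± 30.6 CPM in controls. Klf4, a zinc finger factor, was at 58.6 ± 82.3 and 41.5 ± 35.7 CPM. Dusp1, a phosphatase that inactivates MAP kinases, had 9 UMIs in formalin samples and 4 in controls. Zfp36, an mRNA decay factor, had 6 UMIs and 0 UMIs. Ctgf, a relative of Cyr61 outside the list, averaged 85.9 ± 57.3 and 37.8 ± 30.5 CPM (exact permutation p = 0.0390, adjusted p = 0.978). Il6 was at 0 in these nuclei, and Ccl2, a monocyte chemokine, had 0 UMIs in formalin samples and 6 in controls.

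The bases just upstream of the start of Fos, Cyr61 and Nr4a2 are shown as examples of promoters of the list. They come from RefSeq on GRCm38.p6, read 5′ to 3′ along the gene, and capitals mark TGACG or its reverse complement, a core sequence known to be bound by CREB family factors. The windows are chr12:85473740-85473889 on the plus strand for Fos, chr3:145649986-145650135 on the minus strand for Cyr61 (Ccn1 in RefSeq) and chr2:57124004-57124153 on the minus strand for Nr4a2.
Fos: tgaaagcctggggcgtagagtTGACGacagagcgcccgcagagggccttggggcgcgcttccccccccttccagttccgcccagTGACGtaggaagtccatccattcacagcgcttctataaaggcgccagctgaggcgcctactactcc
Cyr61: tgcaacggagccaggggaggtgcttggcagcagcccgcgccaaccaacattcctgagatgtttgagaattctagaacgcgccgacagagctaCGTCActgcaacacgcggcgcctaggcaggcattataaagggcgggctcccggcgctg
Nr4a2: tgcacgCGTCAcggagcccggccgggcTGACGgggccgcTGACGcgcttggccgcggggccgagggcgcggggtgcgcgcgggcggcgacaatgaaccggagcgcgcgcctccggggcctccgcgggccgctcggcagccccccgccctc
Within 250 bases upstream Fos had 2 matches, Cyr61 1 match and Nr4a2 4 matches, the nearest at 66, 58 and 111 bases from the start. Of all 32851 RefSeq promoters, 17.8% held at least 1 match on either strand in a window of that length. Junb had 1 match, Dusp1 3 matches and Zfp36 none. The Dusp1 matches at 143 and 140 bases overlap in 1 TGACGTCA, which reads the same on both strands. The matches describe the letters only, and binding was not measured.

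Among the meningeal-like clusters, that led by Slc47a1 and Adamtsl3 carried the most rapid activity UMIs after formalin. Pooled over its samples it had 945 CPM of rapid activity transcripts after formalin (95% Poisson interval 787 to 1126) and 216 CPM in controls (164 to 280). Its 94 formalin nuclei carried 125 of the 240 rapid activity UMIs of the meningeal-like formalin nuclei. By sample its levels were 320 to 2232 CPM after formalin (median 849) and 88.2 to 544 CPM in controls (median 237), and 8 of 10 formalin samples were above every control. These rest on 3 to 16 nuclei per formalin sample and 3 to 28 per control. The largest cluster, led by Slc6a20a and Ranbp3l, differed less, at 347 CPM (271 to 438) and 231 CPM (179 to 292), and only 1 formalin sample was above every control there. The cluster led by Aspn stood at 1726 CPM (1127 to 2529) after formalin and 720 CPM (523 to 966) in controls, from 6 and 24 nuclei. That led by Tgfbi stood at 212 CPM (113 to 363) and 56.7 CPM (15.5 to 145), from 13 and 4 rapid activity UMIs. That led by Prg4 stood at 266 CPM (86.4 to 621) and 309 CPM (113 to 673), from 5 and 6 such UMIs. The intervals of the groups overlapped in the clusters led by Slc6a20a, Tgfbi and Prg4. Intervals cover counting error alone, and the cluster led by Slc47a1 was singled out after its values were seen.

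In the cluster led by Slc47a1 more formalin than control nuclei held several rapid activity UMIs. At least 3 rapid activity UMIs were found in 18 of 94 formalin nuclei, from 7 samples, and in 3 of 124 control nuclei. Cyr61 supplied 32 UMIs there after formalin and 7 in controls, Nr4a2 17 UMIs and Junb 10 UMIs. Over all meningeal-like clusters, 28 of 342 formalin nuclei and 10 of 403 control nuclei had at least 3 such UMIs. These 28 nuclei held 55.8% of the formalin group's rapid activity UMIs, and the 10 control nuclei 27.6% of theirs. The 28 and 10 nuclei were deeper than their groups, at medians of 1365 and 3184.5 UMIs against 1026 and 1633 UMIs. Such shares grow with the mean level and with depth. Whether the transcripts gathered in a subset of nuclei was not tested.

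**Figure D3:**
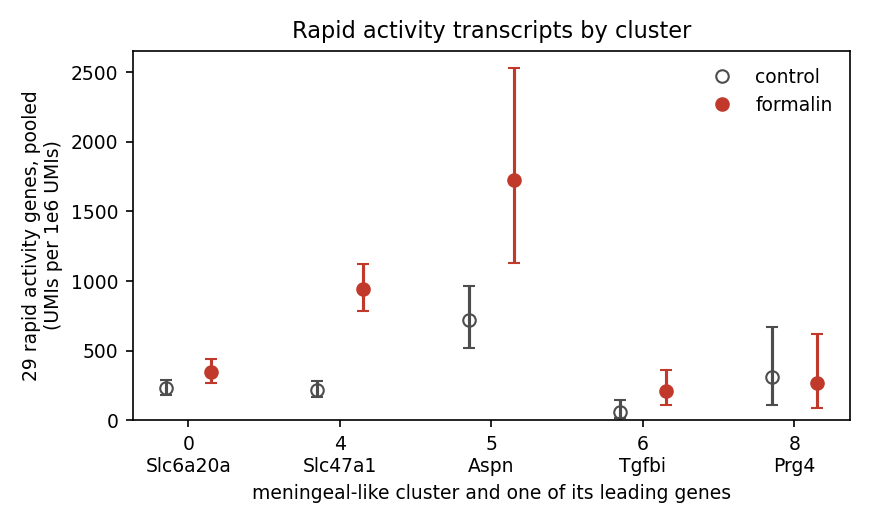
Rapid activity transcripts per 1e6 UMIs in the 5 meningeal-like clusters, pooled over control (open) and formalin (filled) samples, with 95% Poisson intervals that cover counting error only. The Slc47a1 cluster stands at 945 after formalin and 216 in controls, and the Aspn cluster, with 6 formalin nuclei, at 1726 and 720.

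Across all genes, no single change passed the test, in the class or in either of its main parts. In the whole class no gene of 3273 passed an adjusted p of 0.05 in edgeR's quasi-likelihood test (0 genes, 0%). The unadjusted p was under 0.05 for 187 genes (5.71%), 87 of them higher (2.66%). DESeq2 also called 0, and 176 had an unadjusted p under 0.05. The exact permutation test reached 12920 genes with at least 10 UMIs and called 0, while 668 had an unadjusted p under 0.05 (5.17%). In meningeal-like nuclei edgeR called 0 of 1274 genes (56 unadjusted, 4.4%) and the exact permutation test 0 of 10408 (519 unadjusted, 4.99%). In Schwann-like nuclei the counts were 0 of 936 (40 unadjusted, 4.27%) and 0 of 8241 (362 unadjusted, 4.39%). The 95% interval of the fold change in the whole class lay wholly within 2-fold of no change, in either direction, for 87.3% of the 3273 genes.

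The gene nearest to a call in the whole class was 2610507B11Rik, a protein-coding gene at chr11:78261752-78290623. Its level was 82.1 to 183 CPM in formalin samples (median 119) and 40.0 to 70.2 CPM in controls (median 63.8), and it was the single gene of 12920 (0.00774%) in which every formalin sample was above every control. Its log2 fold change was 0.88 ± 0.22 (SE; edgeR p = 0.000273, adjusted p = 0.310; exact permutation p = 3.25e-05, adjusted p = 0.350).

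Fndc1, which encodes a fibronectin type III domain protein, was lower after formalin, at 0 to 66.4 CPM (median 33.5) against 58.9 to 123 CPM in controls (median 91.5). Its log2 fold change was -1.19 ± 0.34 (edgeR adjusted p = 0.607, exact permutation adjusted p = 0.350). Dnah7b, an axonemal dynein of motile cilia, had a log2 fold change of -0.97 ± 0.25 (edgeR adjusted p = 0.310), with ependymal markers at 0.740 of their control level in the same samples. In meningeal-like nuclei Dnah7b stood at 31.6 ± 33.3 CPM in formalin samples and 86.3 ± 36.1 CPM in controls. In Schwann-like nuclei it stood at 36.4 ± 38.2 and 65.1 ± 61.8 CPM. The part of ependymal markers in its whole-class value was not tested. Ibtk, Dcaf10 (a ubiquitin ligase receptor), Dusp15 and the antisense RNA Gm16168 had log2 fold changes of 1.70, 0.91, 0.83 and 0.70. Dlgap2 (a synaptic scaffold), Tmem108 and Arid4b (a chromatin regulator) had -0.92, -0.74 and -0.60, each with an edgeR adjusted p of 0.310 or 0.607.

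**Figure D4:**
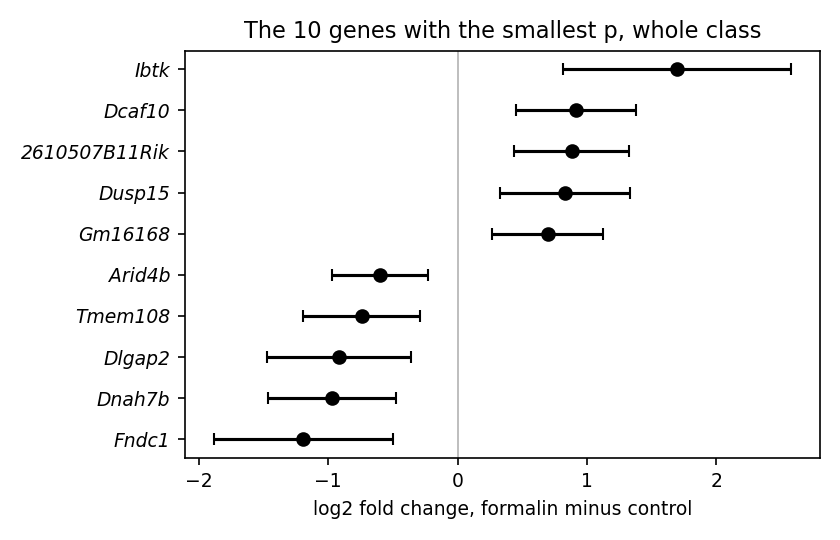
Log2 fold change, formalin minus control, with its 95% interval from edgeR for the 10 genes with the smallest p in the whole class. None passed adjustment, the smallest adjusted p being 0.310.

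In meningeal-like nuclei the 5 genes with the smallest p were Arid4b, Srrm2 (a splicing scaffold), Rarb (a retinoic acid receptor), Mrc2 (a collagen receptor) and Apex2 (a DNA repair nuclease). Srrm2 stood at 840 ± 182 CPM in formalin samples and 557 ± 123 CPM in controls, a log2 fold change of 0.60 ± 0.18. Rarb stood at 355 ± 126 and 215 ± 79.1 CPM, a log2 fold change of 0.78 ± 0.24. The other 3 genes had -0.78, -0.69 and -0.90, and all 5 had an edgeR adjusted p of 0.762. In Schwann-like nuclei Slc7a2, a transporter of cationic amino acids, stood at 309 ± 214 and 111 ± 50.7 CPM (log2 fold change 1.34 ± 0.37, edgeR adjusted p = 0.354). S100b, a calcium-binding glial protein, stood at 182 ± 89.2 and 377 ± 170 CPM (log2 fold change -0.92 ± 0.29, edgeR adjusted p = 0.604). Gm16168, A330069K06Rik and Col23a1 completed the 5 in Schwann-like nuclei, with log2 fold changes of 0.74, -1.01 and -0.65.

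No matrix, myelin or inflammatory gene of the lists was called in the class, and their summed levels overlapped between the groups. Of 31 collagen and matrix genes tested by edgeR, 11 had a positive fold change and 0 were called, and the summed level was 8343 ± 1041 CPM against 8818 ± 1524 CPM. Col1a2 of fibrillar collagen stood at 623 ± 111 and 754 ± 299 CPM. Of 15 Schwann myelin genes 12 had a positive fold change and 0 were called. Pmp22 stood at 694 ± 345 and 688 ± 297 CPM. The NF-kB and inflammatory list summed to 449 ± 157 and 470 ± 134 CPM. Its most abundant gene, Nfkb1, had a log2 fold change of -0.38 ± 0.18 (edgeR adjusted p = 0.853). Over all genes tested 49.3% had a positive fold change.

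Stress-related lists had ratios nearer to 1. Heat shock genes in meningeal-like nuclei summed to 796 ± 216 and 641 ± 81.8 CPM, a ratio of 1.24, with 7 of 10 formalin samples above every control. In Schwann-like nuclei they summed to 944 ± 281 and 1017 ± 192 CPM. Glucocorticoid-responsive genes stood at 1164 ± 432 and 1015 ± 430 CPM in the whole class, a ratio of 1.15. In meningeal-like nuclei the 24 lists other than the rapid activity, AP-1 and Egr/Nr4a lists had ratios from 0.517 to 1.42 with a median of 1.03. The lowest was that of blood genes, for which 1 control held 2624 CPM, and the highest that of dorsal root ganglion neuron genes, at 46.5 and 32.7 CPM. Of all 27 lists, 1 separated the groups without overlap in meningeal-like nuclei, and 0 did so in the whole class or in Schwann-like nuclei.

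**Figure D5:**
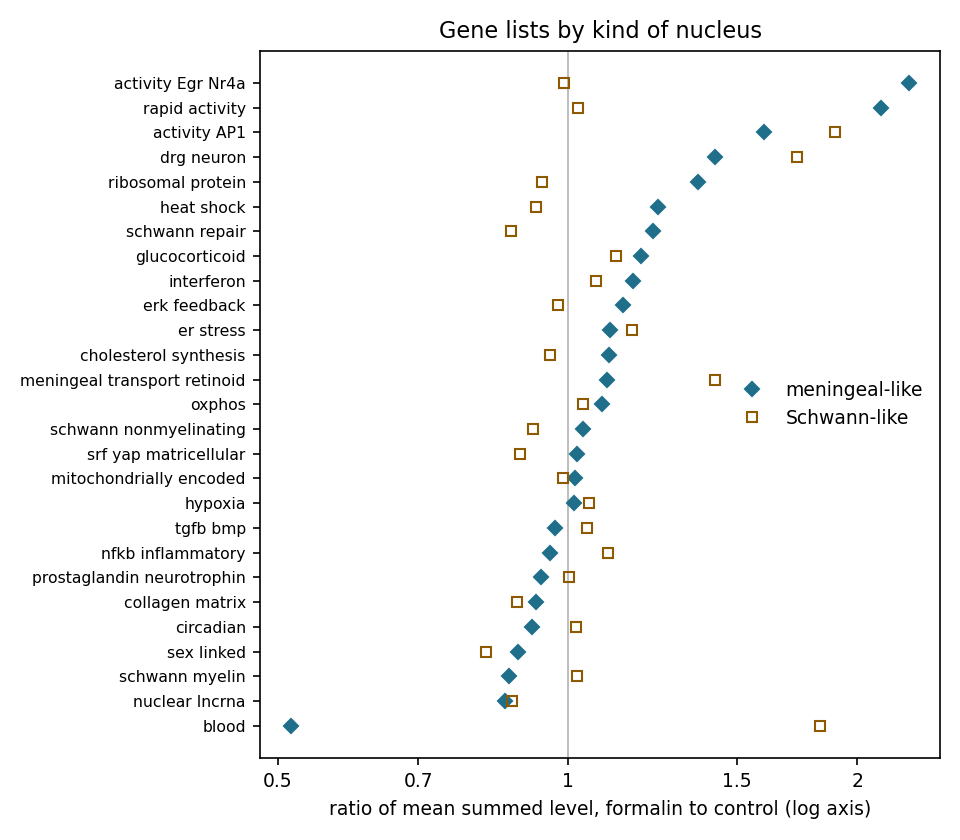
Ratio of the mean summed level in formalin samples to that in controls for 27 gene lists, on a log axis, in meningeal-like (diamonds) and Schwann-like (squares) nuclei. Rapid activity stands at 2.11 and 1.02.

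Whether these responses differ between kinds of nuclei was tested gene by gene. For the difference of the formalin effect between meningeal-like and Schwann-like nuclei of the same samples, the exact permutation test called 0 of 11873 genes, and 559 had an unadjusted p under 0.05 (4.71%). Fos, Egr1 and Cyr61 had unadjusted exact permutation p values of 0.0636, 0.0715 and 0.0779 in that test, and adjusted values of 1. For Nr4a2 and Junb the unadjusted values were 0.433 and 0.547. A difference between the 2 kinds of nuclei was therefore not established for any single gene. Between the class and neurons, edgeR's interaction test called 0 of 6447 genes, and 289 had an unadjusted p under 0.05 (4.48%).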

How the data were processed

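Nuclei of lumbar cord were profiled by Drop-seq, which marks every captured mRNA with a random barcode counted once (a UMI), per the labels' protocols. The authors deposited raw UMI counts for 18000 barcodes, 750 per sample, and a table giving each nucleus a class. The submitters' processing notes name mm10 and GRCm38. The sources used here do not state aligner, annotation, strand or intron counting, so overlapping genes and near-identical copies may share counts. Doublets were not called again.

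Counts were summed per sample over nuclei of the class or of a cluster group, for samples with at least 10 nuclei. Ependymal-like nuclei and single clusters were summed without that minimum. edgeR 4.0.16 (quasi-likelihood, TMM, expression filter by group, robust) was fitted over all 3 groups in R 4.3.3, and p values were adjusted by Benjamini-Hochberg, with calls at 0.05. DESeq2 1.42.0 served as an alternative. Low-count genes (at least 10 UMIs) had a two-sided exact permutation test of mean CPM over samples, adjusted over all genes tested. CPM are UMIs per 1000000 UMIs of the same nuclei. Clusters came from scanpy 1.11.5 (1500 variable genes, 20 components, 15 neighbours, Leiden resolution 0.6) and were named by the share of a type's markers at 3-fold or more over nuclei of the other classes. Both tests were tested on simulated counts. Other software was Python 3.11.15, numpy 2.4.6, scipy 1.17.1, pandas 2.3.3 and matplotlib 3.10.9. Gene positions are from GENCODE on GRCm38.

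For the whole class, the genes named are the 10 with the smallest edgeR p, as no gene was called, and a preset set of immediate early genes. For each group of clusters they are the 5 with the smallest p, and for lists the members with the most UMIs. The members, lists and tests were chosen with earlier results of these data known, and the per-cluster values, the permutation tests within clusters and most alternatives for meningeal-like nuclei after seeing the data. The design text counts each sample as a mouse. Formalin samples i and i+5 resembled each other: 9 of 10 were closest to their partner, with a mean correlation of deviations of 0.0931 within the 5 pairs and -0.128 between others, and all 5 pairs had the same sex-linked pattern, so they were also merged. The sources used here do not say whether partners share an animal. Of 91 pairs of libraries within groups none agreed within sampling noise. The smallest chi-square values per degree of freedom, 1.31 and 1.43, were those of formalin replicates 1 and 6 and of 2 and 7, both partners. A gene that the rule for lists would name is not reported here.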

Additional observations from a re-analysis of the deposited data

Results flagged for a closer look

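Of 93 groups of values checked, 9 held a sample far from the rest of its group, and chance gives about 1 in 20. Control replicate 9 had 81.1% meningeal-like nuclei against 42.5% to 61.9% in other controls, and 2022 CPM of glucocorticoid-responsive genes against 707 to 1247 CPM. Control replicate 2 held 1346 CPM of blood genes, against at most 525 CPM in other controls. Control replicate 8 had 20.4 CPM of Egr1, against at most 9.68 CPM in other controls. Control replicate 7 had 375 CPM of Dnah7b, against at most 240 CPM. Formalin replicate 4 had 823 CPM of NF-kB and inflammatory genes, against at most 565 CPM in other formalin samples, and 146 CPM of dorsal root ganglion neuron genes, against at most 84.2 CPM. Formalin replicate 3 had 1481 CPM of endoplasmic reticulum stress genes, against at most 856 CPM, and 2066 CPM of ribosomal protein genes, against at most 970 CPM.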

How the results depend on the processing

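A minimum of 20 nuclei of the class removed no sample and left the fit unchanged. The count of 0 called genes held for the whole class under DESeq2, its size factors, only 2 groups and a marker covariate. It also held without the 3 controls titled cx and with merged formalin pairs. It was 3 without a filter on low counts (Dnah7b, Eya4 and Nox4, all lower) and 1 with nuclei thinned to 500 UMIs (Itih5, higher); these genes were chosen after their values were seen. Leaving out each sample gave 0 calls in the whole class, in either group of clusters and by exact permutation, and 0 to 1 for the difference from neurons (Fa2h without control replicate 1, Hba-a1 without control replicate 6). The rapid activity ratio of the whole class was 1.24 thinned, 2.11 in meningeal-like and 1.02 in Schwann-like nuclei, and 1.43 to 1.69 without each sample. In meningeal-like nuclei it was 1.71 thinned, 1.57 without Nr4a2, Cyr61 and Egr1, and 1.97 to 2.22 without each sample. The difference in class share, formalin minus control, was 0.119 percentage points and became -1.94 of all barcodes, -0.0132 without the cx controls and -0.463 to 0.566 without each sample; the cause was not tested. Titles of 6 controls and 4 formalin samples share 4 numbers, but same-numbered samples had correlations of deviations from -0.128 to 0.173, only 1 of 6 over 0.1, and 3 of 6 controls were closest to their own number. With the title number as replicate block, chosen after seeing the data, 0 genes were called in the whole class (105 unadjusted, 79 without the block on the same samples), meningeal-like (29 and 34) and Schwann-like nuclei (30 and 21). Depth limits single activity genes: Fos, Egr1, Nr4a2 and Cyr61 rest on 11 to 35 UMIs in meningeal-like formalin nuclei.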
